A study of Astyanax mexicanus with 6 samples.

Results

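The genes described here are the caspases, the caspase-8-binding protein gene casp8ap2 and the apoptosis-inducing factor genes of Astyanax mexicanus, the Mexican tetra. They were chosen by name from the count table, as every symbol that starts with casp or aifm followed by a digit, whatever its values. The choice of this group of names was made with earlier results of these data known. The rule took 15 genes of 25271, under 12 symbols, because CASP6 names 4 separate genes. The study isolated eyes from wild type fish, about 54 hours post-fertilization, of the cave morph, whose embryonic eyes later degenerate, and of the surface morph, which keeps its eyes. Each morph gave 2 libraries of poly(A) RNA and 1 of bisulfite-converted DNA (whole-genome bisulfite sequencing, WGBS). Neither the cave of origin, the number of pooled embryos nor the origin of the replicate libraries is stated. Each RNA p-value therefore speaks only of the libraries at hand, and their spread may be technical. With 1 WGBS library per morph, the methylation p-values hold no spread between libraries.

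Caspases are proteases that cut their substrates after aspartate and carry out apoptosis. Initiator caspases are switched on in protein complexes at death receptors or by signals of stress, and they cut and activate the executioner caspases, which dismantle the cell. The apoptosis-inducing factor family consists of flavoproteins. Its founding member, AIFM1, sits in mitochondria, where it helps to assemble the respiratory chain, and can move to the nucleus in dying cells, while AIFM2, also called FSP1, reduces coenzyme Q at membranes and protects mammalian cells against ferroptosis, a death driven by lipid peroxidation. Death of lens cells is known as an early event in the loss of the cavefish eye.

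The RNA libraries held between 117742250 and 154476181 counts, and the 15 genes took 0.0256% to 0.043% of them. Photoreceptor genes, which define the retina, were present in sum in all libraries, although rhol was at 0 in both libraries labelled surface and rho and rom1a in the first of them. They were far more abundant under the name of the morph that loses its eyes. Of 25 found, 24 passed edgeR's test as higher in the libraries labelled cave, with summed levels of 6611 and 7766 CPM (counts scaled to a common library total) against 436 and 373 CPM. Libraries are therefore called labelled cave and labelled surface throughout, and each direction below rests on those labels. Of 15 lens genes tested 4 were higher and 0 lower in edgeR, and 10 higher and 0 lower in DESeq2, a second test (473 and 491 CPM in sum against 120 and 80.5). Of 26 forebrain and hypothalamus genes 0 were higher and 3 lower in edgeR, and 0 higher and 11 lower in DESeq2 (257 and 132 CPM against 480 and 800). The second library labelled cave had the lowest sums of epidermis and cornea genes and of skeletal muscle genes. Its sums of forebrain and hypothalamus genes and of macrophage and neutrophil genes were the lowest too. Its sums of photoreceptor, lens and erythrocyte genes were not the lowest. Its 19 epidermis and cornea genes summed to 1449 CPM against 13050 CPM in its replicate and 10570 and 12730 CPM in the libraries labelled surface. Its 21 skeletal muscle genes summed to 146 CPM against 1282, 369 and 422 CPM, and 0 genes of either list passed edgeR's test. DESeq2 called 3 muscle genes higher and 0 lower, and 0 epidermis and cornea genes. Over all genes it called 7.0% higher and 3.27% lower. In such bulk samples, fewer cells of a type and less RNA per cell cannot be told apart.

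The first comparison asks which of these genes differ in RNA between the eyes of the morphs. AIFM2 and the third copy of a CASP6 tandem cluster were at or under 0.298 CPM in the libraries labelled surface and at 3.45 CPM or more in those labelled cave, casp3a was 2.84-fold higher under the cave label, and the others showed no difference past the threshold. EdgeR's quasi-likelihood test, with Benjamini-Hochberg adjustment over all genes and a threshold of 0.05, could test 14 of the 15 genes. It called 3 higher in the libraries labelled cave, which is 21.4% of the members tested beside 2.77% of all 22850 genes. It called 0 lower, beside 0.407% of all genes. At an unadjusted p under 0.05 were 4 members (28.6%, beside 18.3% of all genes), all with a positive fold change. The symbols of the 3 called, AIFM2, CASP6 and casp3a, were those given at the outset, and the members were chosen with earlier results known. The share called is therefore a description and no test of the group. DESeq2 called 4 higher and 0 lower, beside 7.0% and 3.27% of all genes. The median log2 fold change of the 14 members was 0.44, against 0.02 over all genes tested. It lay at 0.12 with cave replicate 1 left out, 0.658 with cave replicate 2, 0.567 with surface replicate 1 and 0.267 with surface replicate 2. In 5 members both libraries labelled cave lay above both labelled surface, and in 1 member both lay below, beside 25.4% and 27.7% of all genes. These calls need both surface libraries: with either of them left out, so that the spread comes from the pair labelled cave alone, edgeR called 0 of all genes and 0 of the members, with 3 members at an unadjusted p under 0.05 in each case.

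**Figure D1:**
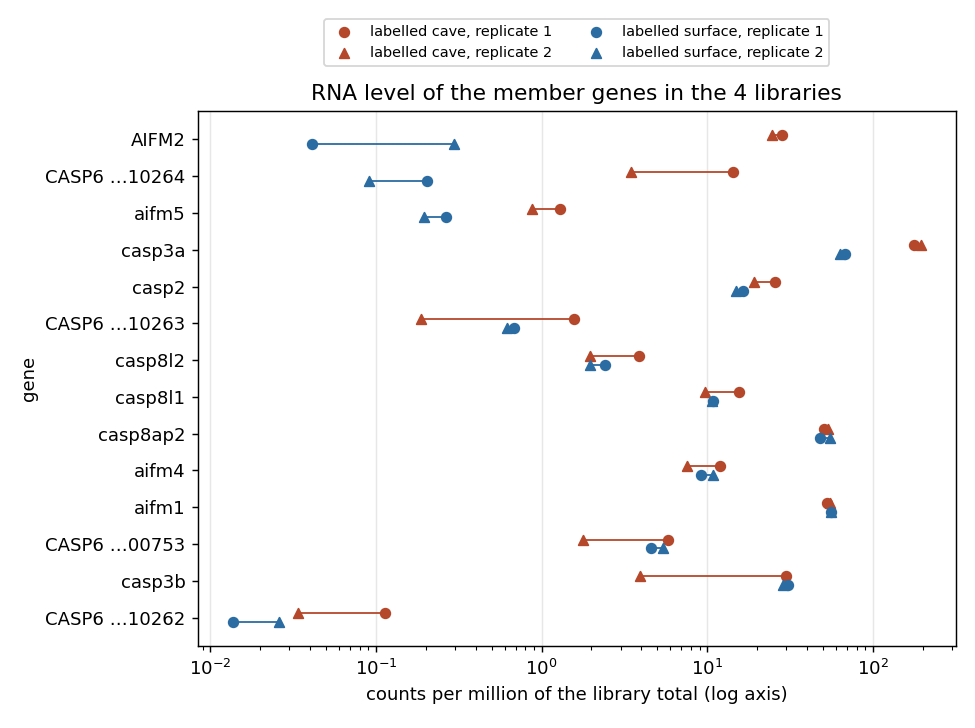
Level of the member genes named in the text in CPM on a log axis, with 1 point per RNA library and a line joining the 2 libraries of a label; CASP6 copies carry the last digits of their gene ID, and levels are to be compared within a row, since gene lengths differ. AIFM2 lies at 28.4 and 24.7 CPM against 0.0408 and 0.298 CPM, while casp3b has a single low point, 3.92 CPM in the second library labelled cave.

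Of 6 executioner caspase genes tested, 2 were higher and 0 lower, beside 2.77% and 0.407% of all genes. The gene casp3a (ENSAMXG00000000702, scaffold KB871734.1, 468715 to 485884, plus strand) is the zebrafish-named counterpart of mammalian caspase 3, the main executioner. Its counts were 23516 and 23076 under the cave label and 10036 and 9749 under the surface label. Both cave values were more than 2-fold above both surface values, and the replicates of each label lay close together. Levels were 187 ± 13.3 CPM and 65.7 ± 3.68 CPM (SD, n = 2), and the log2 fold change was 1.58 (SE 0.21; edgeR, Benjamini-Hochberg adjusted p = 0.0248; DESeq2, adjusted p = 6.34e-06). The size stayed between 1.39 and 1.68 with any 1 library left out, but the call was lost without surface replicate 1 (edgeR, adjusted p = 0.308) and without surface replicate 2 (adjusted p = 0.352). Its neighbour acsl1a lies 179 bases beyond its end, on the other strand, and had a log2 fold change of -0.23, not past the threshold. The higher level of casp3a under the cave label went with higher levels of the photoreceptor and lens markers given above, as did that of AIFM2 below, and the part of those markers was not tested.

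CASP6 names 4 genes. Caspase 6 is an executioner known for cutting nuclear lamins and for its part in the breakdown of axons. A cluster of 3 copies, counted here along the scaffold, lies head to tail on the minus strand of scaffold KB871611.1, at 456200 to 468186 (ENSAMXG00000010262), 469829 to 472087 (ENSAMXG00000010263) and 475599 to 487814 (ENSAMXG00000010264), and the other copy lies alone at 133861 to 138579 on KB872364.1 (ENSAMXG00000000753). Copies of a gene can share reads, so their counts are uncertain to that extent.

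The third tandem copy, ENSAMXG00000010264, was counted 1903 and 406 times under the cave label and 30 and 14 times under the surface label. The groups did not overlap, although the first library labelled cave was 4.16-fold above the second in CPM. The epidermis and muscle markers were also higher in the first, 9.01-fold and 8.79-fold. So were the forebrain and macrophage markers, 1.95-fold and 1.99-fold. The photoreceptor, lens and erythrocyte markers stood at 0.851, 0.965 and 0.819 of the second. The part of these markers was not tested. The level of this CASP6 copy was 8.89 ± 7.70 CPM against 0.147 ± 0.0803 CPM (SD, n = 2), a ratio of 60.3, and edgeR put the log2 fold change at 5.95 (SE 0.97; edgeR, Benjamini-Hochberg adjusted p = 0.0426; DESeq2, adjusted p = 1.71e-11). Leaving out cave replicate 1 gave 4.64, cave replicate 2 gave 6.55, and the value was 6.66 without surface replicate 1 and 5.42 without surface replicate 2. The edgeR call was lost in both of the latter (adjusted p = 0.394 and 0.474) and when libraries were scaled by their totals alone (adjusted p = 0.0675). An unnamed gene 2592 bases away on the same strand, at 490406 to 491239 (ENSAMXG00000024933), had 203 and 72 counts against 0 and 4, with a log2 fold change of 6.36 that did not pass (SE 1.35; edgeR, adjusted p = 0.0804).

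The other CASP6 copies did not pass the test or were not tested. The middle copy, ENSAMXG00000010263, had 209 and 22 counts against 100 and 95, so the libraries labelled cave lay on either side of those labelled surface. Its log2 fold change was 0.50 (SE 1.01; edgeR, adjusted p = 0.844), turning to -1.68 without cave replicate 1 and standing at 1.24 without cave replicate 2. The copy ENSAMXG00000010262 had 15 and 4 counts against 2 and 4, too few to be tested under the filter on low counts. The lone copy, ENSAMXG00000000753, had 772 and 209 counts against 671 and 833, so the log2 fold change came to -0.32 (SE 0.61; edgeR, adjusted p = 0.833). Leaving out cave replicate 1 gave -1.37, and leaving out the other cave library gave 0.20. Differences between the copies were not tested.

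The second caspase 3 gene, casp3b (ENSAMXG00000005887, KB882108.1, 1727015 to 1736801, plus strand), stood out by a single library. Its counts were 3997 and 462 under the cave label and 4496 and 4464 under the surface label. The second library labelled cave was 7.67-fold below its replicate in CPM, while the other 3 lay between 28.9 and 30.6 CPM. Its log2 fold change over all libraries was -0.75 (SE 0.84; edgeR, adjusted p = 0.701). Leaving out cave replicate 1 gave -2.82, and leaving out cave replicate 2 gave -0.019. The summed epidermis and cornea markers were also lowest in that library: relative to the labelled surface mean they stood at 1.12 and 0.124 in the libraries labelled cave, and casp3b at 1.01 and 0.132. The lone CASP6 copy stood at 1.17 and 0.356 and the middle tandem copy at 2.43 and 0.288, with the skeletal muscle markers at 3.24 and 0.368. The forebrain and hypothalamus markers stood at 0.402 and 0.206, and the macrophage and neutrophil markers at 1.06 and 0.531. Of 19 epidermis and 21 muscle genes found, 0 were at 0 in all libraries. The part of any of these markers in these values was not tested. In 11 of the 14 members tested (78.6%) the first library labelled cave lay above the second, beside 53.9% of all genes tested. The second was the lowest of the 4 libraries in 5 of the 14 members (35.7%), beside 36.3% of all genes tested.

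**Figure D2:**
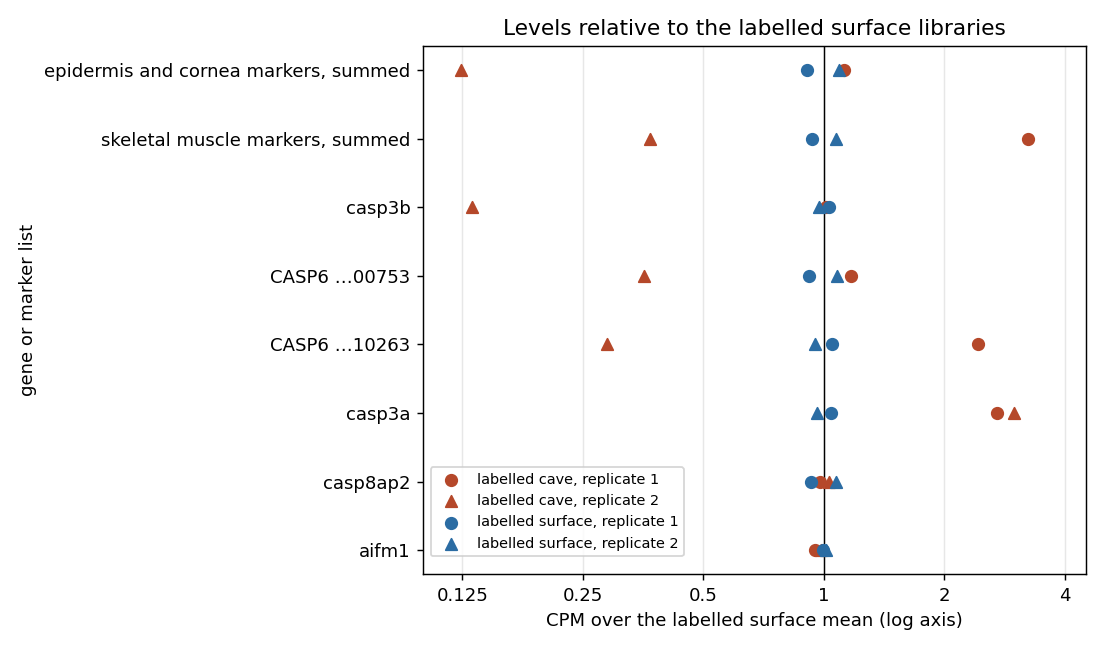
Level in each RNA library divided by the mean of the libraries labelled surface, on a log axis, for the summed epidermis and cornea markers, the summed skeletal muscle markers and 6 member genes picked after their values were seen. The second library labelled cave lies at 0.124 for the epidermis markers and 0.132 for casp3b, but at 2.98 for casp3a and 0.982 for aifm1.

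Among the initiator genes none of 3 passed the threshold in edgeR or DESeq2, and none was at an unadjusted p under 0.05 in either. Caspase 2, encoded by casp2 (ENSAMXG00000019043, KB882127.1, 2918355 to 2930691), responds to DNA damage and errors of chromosome number. It had 3392 and 2269 counts against 2428 and 2321, and in CPM both libraries labelled cave (25.6 and 19.3) lay above both labelled surface (16.5 and 15.0). Its log2 fold change was 0.58 (SE 0.27; edgeR, adjusted p = 0.34). The caspase-8-like genes overlapped between the labels: casp8l1 had 2068 and 1139 counts against 1602 and 1645, and casp8l2 had 517 and 231 against 356 and 303. Their log2 fold changes were 0.30 (SE 0.34) and 0.48 (SE 0.53), and both turned to about 0 without cave replicate 1, at -0.048 and -0.059. Caspase 8 is the initiator that death receptors recruit.

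The gene casp8ap2 (ENSAMXG00000014316, KB882195.1, 815204 to 827402) matches the naming rule but encodes no protease. Its product, also called FLASH, was found as a caspase 8 partner and is needed to process histone messages. It had 6729 and 6293 counts against 7079 and 8588, or 52.1 ± 1.95 CPM beside 51.9 ± 5.24 CPM (SD, n = 2). The log2 fold change of 0.09 (SE 0.19; edgeR, adjusted p = 0.851) was among the smallest of the members.

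In the apoptosis-inducing factor family 1 of 4 genes was higher and 0 lower, beside 2.77% and 0.407% of all genes. AIFM2 (ENSAMXG00000001966, KB872296.1, 2045181 to 2051067, minus strand) was counted 3773 and 2912 times under the cave label but 6 and 46 times under the surface label. Levels of the libraries labelled cave lay within 1.15-fold of each other, far above both labelled surface, which were at 0.0408 and 0.298 CPM. The means were 26.6 ± 2.61 CPM and 0.169 ± 0.182 CPM (SD, n = 2), a ratio of 157. The log2 fold change of 7.40 (SE 0.92; edgeR, Benjamini-Hochberg adjusted p = 0.0218; DESeq2, adjusted p = 9.35e-23) ranked 105 by size among the 22850 genes tested. Without surface replicate 1 it was 6.55 (edgeR, adjusted p = 0.123) and without surface replicate 2 it was 9.31 (adjusted p = 0.0834), so the size depends on which low library is kept and the edgeR call on having both. Leaving out a library labelled cave changed it little, to 7.31 and 7.37, with the spread then taken from the pair labelled surface alone. Within 10000 bases the files list a single neighbour, ENSAMXG00000001987, 8822 bases away on the other strand. That gene had 6008 and 6307 counts against 5271 and 5244, with log2 fold change 0.58 (SE 0.22; edgeR, adjusted p = 0.258).

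The other family members gave smaller values. The gene aifm5 (ENSAMXG00000019914, KB882304.1, 95996 to 110421) had 172 and 103 counts against 39 and 30, without overlap, at 1.09 ± 0.298 CPM against 0.230 ± 0.0504 CPM (SD, n = 2). Its log2 fold change of 2.298 (SE 0.66) did not pass in edgeR (adjusted p = 0.153) and did in DESeq2 (adjusted p = 0.0462). The value lay between 2.025 and 2.542 with any 1 library left out. With the replicate number as a block it was 2.305 and did not pass (edgeR, adjusted p = 0.294). The founding gene aifm1 (ENSAMXG00000006808, KB882234.1, 496299 to 546275) had the smallest absolute log2 fold change of the 14 tested, with 7040 and 6471 counts against 8181 and 8690. In CPM its 4 libraries lay between 53.04 and 56.3, with both labelled cave just below both labelled surface, and the log2 fold change was 0.028 (SE 0.19; edgeR, adjusted p = 0.958), with a sign that flips to -0.052 when libraries are scaled by their totals alone. For aifm4 (ENSAMXG00000008628, KB882095.1, 1462322 to 1473590) the counts were 1590 and 886 against 1343 and 1672, and its log2 fold change was 0.045 (SE 0.34; edgeR, adjusted p = 0.962), with a sign that also flips under that scaling, to -0.034.

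**Figure D3:**
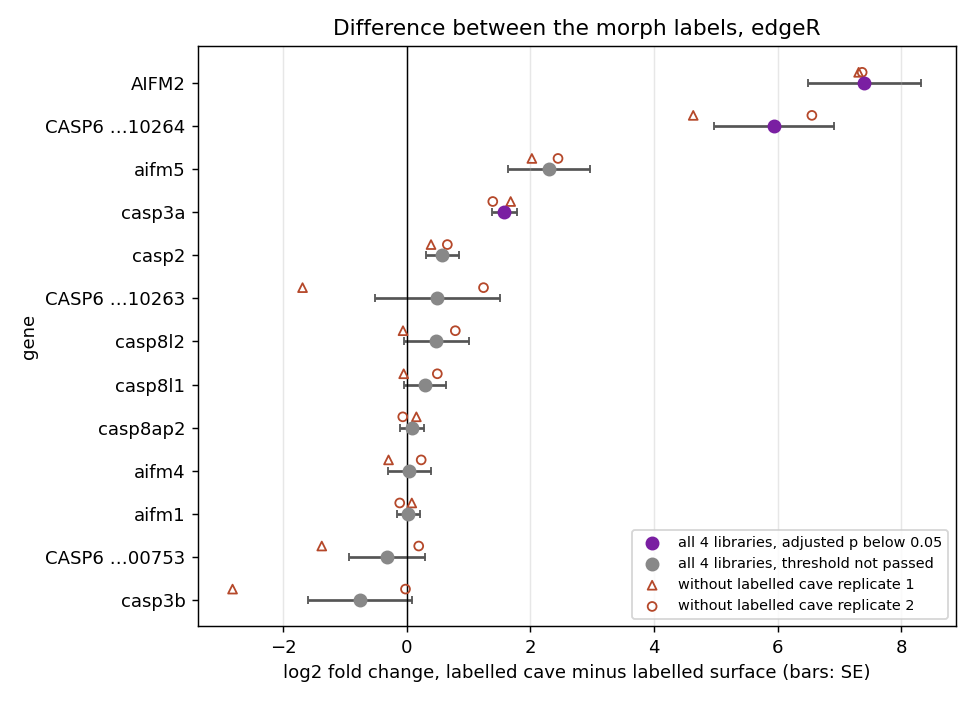
Log2 fold change of the tested member genes named in the text, labelled cave minus labelled surface, from edgeR; filled points are from all 4 libraries with the SE as a bar, and open points leave out a library labelled cave. AIFM2, the third tandem CASP6 copy and casp3a passed the threshold, at 7.40, 5.95 and 1.58, and casp3b moves between -2.82 and -0.019 with the library left out.

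The authors' deposited table gives its own comparison, whose sign runs surface minus cave by the names of the count columns (Spearman correlation of -0.994 across genes with the DESeq2 values computed here). An adjusted p under 0.05 stands beside 4 members in the authors' deposited table, and 1 of the 15 has no adjusted p there. Over all its genes, it stands beside 1577 with a negative and 743 with a positive fold change. How many of its genes have any adjusted p was not counted, so these numbers give no share. The authors' table draws on the same RNA libraries, so it is no separate evidence. The authors' deposited table gives log2 fold changes of -5.84 for AIFM2, -4.47 for the third tandem CASP6 copy, -1.49 for casp3a and -1.80 for aifm5. In the files' coordinates 0 of the 15 genes overlap another gene. The genome build is not given in the sources used here, nor is the strand setting of the counting.

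The next comparison asks whether DNA methylation at these genes differs between the WGBS libraries. The deposited table gives methylated and unmethylated calls over each gene body and over a region upstream of it, whose width is not given. With 1 library per label, a two-sided Fisher's exact test compares the 2 libraries and not the morphs. Calls on a read are not independent, so its p-values are too small, and the 95% Clopper-Pearson exact intervals given here are narrower than they should be. Calling a region took a difference of 10 percentage points or more and a Benjamini-Hochberg adjusted p under 0.05. Between 189 and 20726 calls per library stood behind each value.

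Upstream methylation varied widely among the members. In both libraries 4 genes, among them aifm4, casp3b and casp8l2, lay under 25%, and 7 lay over 50%. All 4 CASP6 copies belonged to the highly methylated ones, between 73.5% and 91.6%. The median level of the members was 54.5% in the library labelled cave and 43.1% in that labelled surface, beside 72.7% and 70.5% over all regions. Taken gene by gene, however, the median difference, cave minus surface, was -3.43 points, beside 0.73 points over all regions. Only 6 of the 15 members were more methylated upstream in the library labelled cave, counting differences of any size. Upstream regions of 3 of 15 members were called more methylated in the library labelled cave (20%, beside 12.1% of 23680 regions) and 2 less (13.3%, beside 8.67%). The median absolute difference of the members was 4.13 points, against 4.14 points over all regions, so by the typical size of the difference they lay close to the background.

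AIFM2 had the largest upstream difference of the 15 genes. Its upstream region was methylated at 89.8% of 1576 calls in the library labelled cave (exact interval 88.2 to 91.3) and at 31.5% of 1329 calls in that labelled surface (29.0 to 34.0). The difference of 58.4 points (Fisher's exact test, adjusted p = 1.73e-245) ranked 73 of 23680 regions by size. Its gene body showed a difference of the same sign, 87.3% of 4200 calls (86.2 to 88.3) against 61.3% of 4034 calls (59.7 to 62.8), or 26.0 points, ranked 174 of 25016 gene bodies (Fisher's exact test, adjusted p = 1.45e-164). The RNA of AIFM2 was also higher under the cave label, so by the labels the library with the more methylated upstream region belongs to the morph with the more abundant RNA. Whether the RNA and the WGBS labels name the same morphs was not tested. The other 2 upstream regions called more methylated were those of casp8ap2, at 43.2% against 31.3% (11.97 points, Fisher's exact test, adjusted p = 0.000367), and the middle tandem CASP6 copy, at 84.3% against 73.5% (10.8 points, adjusted p = 6.29e-07).

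Both caspase-8-like genes were less methylated upstream in the library labelled cave. The region of casp8l1 (ENSAMXG00000015634, KB871651.1, 454270 to 465488) stood at 27.7% of 786 calls (24.6 to 31.0) against 43.1% of 659 calls (39.3 to 47.0), a difference of -15.4 points (Fisher's exact test, adjusted p = 7.62e-09). That of casp8l2 (ENSAMXG00000007768, KB882244.1, 638387 to 650902) stood at 5.66% of 212 calls (2.96 to 9.68) against 21.2% of 373 calls (17.1 to 25.7), a difference of -15.5 points (adjusted p = 8.62e-07). The gene body of casp8l2 went the other way, at 76.6% against 65.5%. Neither gene differed past the threshold in RNA.

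Gene bodies of 3 of 15 members were called more methylated in the library labelled cave (20%, beside 3.15% of 25016 gene bodies) and 0 less (beside 1.99%). These were AIFM2, casp8l2 (11.0 points, Fisher's exact test, adjusted p = 1.15e-41) and casp3a, at 82.7% of 11648 calls (82.0 to 83.4) against 70.8% of 9247 calls (69.9 to 71.7), a difference of 11.9 points (adjusted p = 1.61e-90). The upstream region of casp3a was not called, at 54.5% against 58.1% (Fisher's exact test, adjusted p = 0.255). With the difference required raised to 20 points, AIFM2 alone of these genes stayed called, upstream and in its body.

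The third tandem CASP6 copy, with its 60.3-fold difference in RNA, had much the same upstream level in both libraries, 73.7% of 608 calls (70.0 to 77.1) against 77.8% of 581 calls (74.2 to 81.1), a difference of -4.11 points that did not pass (Fisher's exact test, adjusted p = 0.154), and its body stood at 81.3% against 78.4%. The upstream region of casp3b held 0 methylated calls of 334 in the library labelled cave. There 3 calls would be 0.898% and the exact upper bound is 1.098%, taking each call as counted once. In the library labelled surface the region stood at 3.70% of 243 calls (1.71 to 6.91). For aifm1 the levels were 68.6% against 70.1% upstream and 74.7% against 75.6% in the body. The body of aifm4 was the least methylated of the members, at 40.7% against 39.0%, and those of aifm5 and the lone CASP6 copy among the most, between 90.8% and 91.3% in both libraries.

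**Figure D4:**
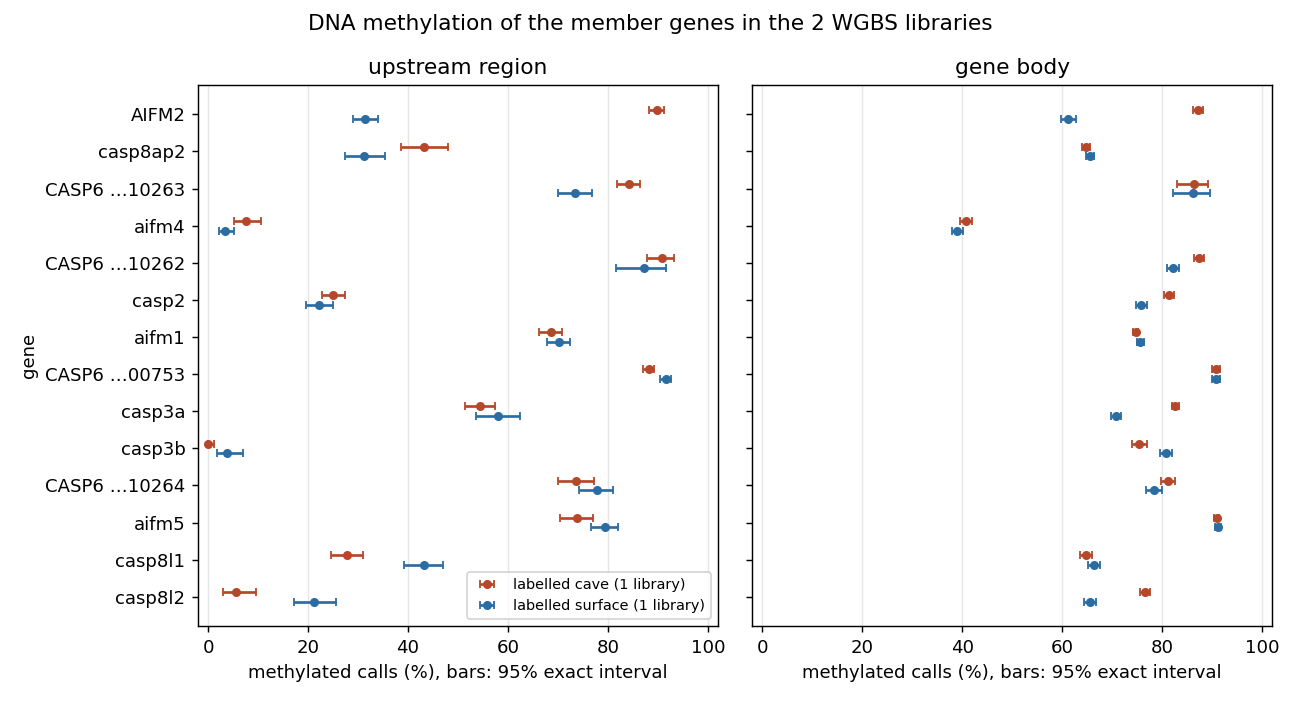
Percent of methylated calls at the upstream region (left) and gene body (right) of the member genes named in the text in the 2 WGBS libraries; bars are 95% exact intervals, which cover counting error only. The points for AIFM2 lie farthest apart in both panels, at 89.8% against 31.5% upstream and 87.3% against 61.3% in the body.

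The last comparison takes the genes that act around the caspases. Of 148 pathway genes tested in 10 lists, edgeR called 0, and 17 had an unadjusted p under 0.05 (11.5%, beside 18.3% of all genes). In DESeq2 the calls were 5 higher and 3 lower (3.38% and 2.03%, beside 7.0% and 3.27% of all genes). The median log2 fold change of the 148 genes was -0.011 with all libraries, beside 0.02 over all genes. It was -0.011 without cave replicate 1 (-0.044 over all genes) and -0.082 without cave replicate 2 (-0.02 over all genes). The list medians ran from -0.24 to 0.55 on the log2 scale, against 0.02 over all genes. In the apoptosome list (cytochrome c, its partners and the inhibitors of apoptosis), 0 of 12 passed in edgeR or DESeq2, with a median of 0.35 (0.22 without cave replicate 2). Its smallest p belonged to endog, which encodes a mitochondrial nuclease (log2 0.65, SE 0.21; edgeR, adjusted p = 0.186). For the BCL2 family, 0 of 7 protective genes passed in either test, with a median of 0.55 and BCL2 at 1.40. That median lay between 0.099 and 0.673 with 1 library left out, lowest without cave replicate 2. Of 12 death-promoting genes 0 passed in edgeR. In DESeq2 3 were higher and 0 lower, beside 7.0% and 3.27% of all genes. These were bnip3lb, bmf2 (log2 1.19, DESeq2, adjusted p = 0.0299) and bokb (log2 5.04, DESeq2, adjusted p = 0.0196). The counts of bokb were 58 and 94 against 0 and 6. The median of this list was -0.01 and ran from -0.12 to 0.085 with 1 library left out. The mitophagy gene bnip3lb had the smallest p there (log2 0.88, SE 0.21; edgeR, adjusted p = 0.111; DESeq2, adjusted p = 0.0221). Among partners of apoptosis-inducing factor 0 of 11 passed in edgeR, with a median of 0.05 that ran from -0.12 without cave replicate 2 to 0.14 without cave replicate 1, and 1 in DESeq2, mif (log2 0.89, SE 0.20; edgeR, adjusted p = 0.0912; DESeq2, adjusted p = 0.031), whose product has been described as a nuclease that works with AIFM1.

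Death receptors and their adaptors had 0 of 17 in either test, a median of -0.14 (-0.23 without surface replicate 2, 0.003 without cave replicate 2) and daxx, a death-domain-binding chaperone gene, at -0.51. Other caspase-domain and caspase-binding genes had 0 of 10 in either test, a median of -0.06 and cflara, which encodes an inhibitor of caspase 8, at 0.49. Leaving out cave replicate 1 moved that median to -0.88, and leaving out cave replicate 2 to 0.20. Endoplasmic reticulum stress genes had 0 of 17 in either test and a median of -0.13, with trib3 at -0.39. Downstream, caspase substrates had 0 of 21 in either test and a median of -0.04 (from -0.096 to 0.047 with 1 library left out), with the channel gene panx1a at 0.54.

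Genes for the engulfment of dead cells had 0 of 25 past edgeR's threshold and a median of -0.24. Both libraries labelled cave lay above both labelled surface in 4 of them, beside 25.4% of all genes. Both lay below in 12, beside 27.7% of all genes. DESeq2 called 1 higher and 3 lower, beside 7.0% and 3.27% of all genes. The one higher was gulp1b, an adaptor gene, with 2928 and 2688 counts against 1410 and 1529 (log2 1.28, SE 0.25; edgeR, adjusted p = 0.0691; DESeq2, adjusted p = 0.000628). Those lower in DESeq2 were stab2 (log2 -1.51), adgrb1b (-1.46) and AXL (-1.37), genes of surface receptors that bind dying cells. Beside them, the list of macrophage and neutrophil markers, cells that engulf, had 0 of 32 past edgeR's threshold. In DESeq2 0 were higher and 5 lower, beside 7.0% and 3.27% of all genes. The summed levels were 412 and 206 CPM against 404 and 374 CPM. Of the list's 2 genes named mpx, 1 was at 0 in all libraries, the other having 1394 and 361 counts against 1397 and 1855. The erythrocyte markers had 2 of 9 higher and 0 lower in edgeR, beside 2.77% and 0.407% of all genes. In DESeq2 2 were higher and 2 lower, beside 7.0% and 3.27%. Their median was -0.72, at 229 and 280 CPM against 323 and 269 CPM in sum. The part of these cells in the engulfment genes was not tested.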

How the data were processed

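Per the submitters' processing notes, Trimmomatic, STAR, Subread, featureCounts, Bismark and DESeq2 were used, with no versions; the sources used here give no genome build, strand setting, cytosine context or duplicate removal. The deposited RNA table holds raw counts per gene. Of its counts from 1 to 30, between 74.4% and 86.6% were even. The deposited methylation table holds counts of methylated and unmethylated calls, each even in the cave library. In the surface library between 50.6% and 53.4% of the values per column were even. The cause of this difference was not tested. The methylation table's 4 columns of ratios per library were not used. The authors' deposited comparison gives a mean signal, a log2 fold change with its error and an adjusted p-value.

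The quasi-likelihood test of edgeR 4.0.16 (R 4.3.3) compared 2 with 2 RNA libraries after its default removal of low counts and TMM scaling, and p-values were Benjamini-Hochberg adjusted over 22850 genes. Dividing the absolute log2 fold change by the square root of F gave the SE. DESeq2 1.42.0 was the alternative. CPM uses library totals. Regions with at least 20 calls per WGBS library were compared by Fisher's exact test (scipy 1.17.1). Intervals (95%) and the floor of 3 calls cover counting error only. Like Fisher's exact test, they take each call as counted once. EdgeR's test and Fisher's exact test were run on simulated data, with the same dispersion for all genes and with independent calls. These runs do not cover the unequal spread of the RNA libraries or the dependence of calls on a read. No exon lengths were at hand, so levels are not compared between genes.

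The members, 10 pathway lists and 7 marker lists were chosen with earlier results of these data known. Named genes were the 3 given at the outset (CASP6, casp3a and AIFM2), members past an RNA or methylation threshold, the 4 with the largest fold changes, untested members, and per list the gene with the smallest p; others were named after their values were seen. Some genes and 1 list are counted in the totals, but their own values are not reported here. Alternatives were other scalings, no filter, DESeq2, halved counts, each library left out, a replicate block, and other call minimums and differences.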

Additional observations from a re-analysis of the deposited data

How the results depend on the processing

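Of 140 refits of the 14 members tested, 114 kept the sign and the side of the threshold, 8 lost the call, 5 gained it and 13 changed sign, all 13 in members not called. With 1 RNA library left out, the members called ranged from 0 to 4 higher and from 0 to 2 lower, all genes from 0 to 2989 higher and from 0 to 4203 lower, and the pathway genes from 0 to 15 higher and from 0 to 20 lower. DESeq2 called 1600 genes higher and 747 lower, with 5 and 3 in the pathway lists, and library totals alone gave 60 lower. The labels give both morphs replicates 1 and 2, but nothing says that a number marks a pair (correlation of the deviations of replicate 1 of -0.052 across genes). The Spearman correlation across genes was 0.944 between the libraries labelled cave and 0.989 between those labelled surface. Between replicate 1 of the cave label and replicate 1 of the surface label it was 0.943. With a replicate block edgeR called 318 genes higher and 35 lower, and casp3a no longer passed (adjusted p = 0.0696).

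Some values changed sign. For aifm4 they were -0.034 with library totals, -0.086 without surface replicate 1 and -0.293 without cave replicate 1 (0.235 at most with a library left out). For casp8ap2 they were -0.022 without surface replicate 1 and -0.063 without cave replicate 2 (0.157 at most). For aifm1 they were -0.052 with library totals, -0.041 without surface replicate 2 and -0.112 without cave replicate 2 (0.083 at most). Without cave replicate 1, casp8l2 was at -0.059, casp8l1 at -0.048 and the middle tandem CASP6 copy at -1.68, and without cave replicate 2 at 0.787, 0.496 and 1.24; the CASP6 copy was at -0.142 with a replicate block. The lone CASP6 copy moved from -1.37 without cave replicate 1 to 0.195 without its replicate. With calls of both libraries halved, gene body differences were -0.0953 points for the middle tandem CASP6 copy and -0.000102 for the lone copy. The cause of these changes was not tested.

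The number of methylation calls moves with the difference required. At 5 points, 5698 upstream regions were more and 3916 less methylated, 3018 gene bodies more and 1655 less, and member bodies 5 and 1. At 20 points these were 849 and 693 upstream, 186 and 115 in bodies, with 1 member more methylated in each kind of region and 0 less. Other call minimums, and halving the calls of both libraries or, chosen after seeing the data, of the cave library alone, left the same members called. With 2 libraries per label, and 1 for methylation, the number of libraries limits the precision; depth limits the CASP6 copy with 15, 4, 2 and 4 counts, which could not be tested under the filter.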

Other observations

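A wider look took the genes outside the naming rule and the lists whose deposited description speaks of caspases or of inducing apoptosis, a choice made after the data were seen. Of these 10 genes edgeR called 1 (beside 2.77% of all genes higher and 0.407% lower), the copy of CARD19 at ENSAMXG00000015526, a gene of the caspase recruitment domain family. It was counted 489 and 238 times under the cave label and 6 and 20 times under the surface label, without overlap, and edgeR put the log2 fold change at 5.15 (SE 0.81; edgeR, Benjamini-Hochberg adjusted p = 0.0378; DESeq2, adjusted p = 3.96e-09). A second gene of the same name, card19, had 2689 and 1228 counts against 1842 and 2359 and a log2 fold change of 0.22, and reads may be shared between the copies. The caspase inhibitor genes aven and CAAP1 were at -0.09 and 0.33, and the paracaspase gene malt3, with 456 and 106 counts against 666 and 576, was at -0.87 with all libraries, at -2.10 without cave replicate 1 and at -0.31 without cave replicate 2.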
